A study of Mus musculus with 10 samples.

Results

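Interferon-stimulated genes are the genes that cells switch on when interferon, a secreted alarm signal of viral infection, binds its receptor. A list of 39 mouse genes of this class, chosen by name and without RNA sensors, GBP and IRG GTPases and MHC genes, was followed in hippocampal RNA. The list was chosen with earlier results of these data known. How many of its genes differed between groups is therefore a description and no independent support. Of the 39 genes, 38 had a row among the 21956 genes of the deposited table, and 37 passed the filter on low counts together with 14396 genes in all. Mx2 had no row and was not analysed here, and Oas3 fell below the filter.

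The samples were the hippocampi of 10 mice at 6 months of age with the genotype label hMapt, where MAPT is the name of the tau gene. In 5 of them the treatment was an injection of AAV-circTau6, an adeno-associated virus carrying a circular RNA that the series title derives from MAPT, and the series describes the tissue as taken 80 days after injection. The other 5 had the treatment label control, and the extraction protocol calls them control-injected without naming what was injected. All 10 mice thus shared the hMapt genotype, and neither the promoter nor the target cells of the virus are in the labels. Total counts were 15051882 to 17643921 per control library and 14762952 to 17647138 per circTau6 library. The groups are called circTau6 and control here, and a library is named by its group and replicate number, which the labels give.

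Type I interferons bind the receptor chains Ifnar1 and Ifnar2, and the kinases Jak1 and Tyk2 then activate Stat2. With Irf9 it takes part in a complex that binds a DNA element of repeated GAAA, the interferon-stimulated response element (ISRE), in the promoters of its target genes. Interferon gamma acts through a different element, the gamma-activated site (GAS). In the brain, microglia, endothelial cells, choroid plexus and the meninges are known to respond, and many target genes also act against viruses within neurons and glia.

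RefSeq promoter windows on GRCm38.p6, each 300 bases from 250 before to 50 after a transcription start, were available for 29 of the 39 genes. The genes without an entry were Usp18, Oas2, Mx1, Mx2, Rtp4, Parp9, Parp14, Ifi204, Ifi27 and Ifi27l2a. These windows were searched on both strands for GAAANNGAAA, which reads TTTCNNTTTC on the other strand and whose matches may overlap one another, and for the GAS letters TTCNNNGAA, which read the same on both strands. The ISRE-type letters were in 14 of 35 member windows (40%), against 3.44% of all 32851 windows, and the GAS letters in 7 of 35 (20%), against 8.3%. By gene, 13 of 29 members (44.8%) had an ISRE-type match, against 3.99% of all 27025 genes. The search shows letters only, not binding.

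The windows of 5 genes are printed 5′ to 3′ on the gene's own strand, with ISRE-type matches in capitals. Isg15 had the lowest edgeR p of all members. Ifit1, Ifit3 and Ifit3b lie close together on chromosome 19, and Oasl2, with no match in its window, had the lowest edgeR p once control replicate 1 was left out.
Isg15, chr4:156200769-156201068, minus strand: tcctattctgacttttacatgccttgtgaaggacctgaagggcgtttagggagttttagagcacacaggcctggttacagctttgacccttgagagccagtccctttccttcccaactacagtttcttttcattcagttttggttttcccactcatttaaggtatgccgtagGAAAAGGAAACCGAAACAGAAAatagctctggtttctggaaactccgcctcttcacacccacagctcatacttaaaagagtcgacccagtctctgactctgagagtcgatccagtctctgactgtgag
Ifit1, chr19:34640639-34640938, plus strand: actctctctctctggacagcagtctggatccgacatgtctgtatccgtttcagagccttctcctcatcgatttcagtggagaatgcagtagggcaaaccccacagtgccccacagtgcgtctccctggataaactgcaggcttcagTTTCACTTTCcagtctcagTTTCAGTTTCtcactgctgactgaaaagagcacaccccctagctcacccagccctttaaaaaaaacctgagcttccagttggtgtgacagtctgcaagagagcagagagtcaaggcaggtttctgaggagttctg
Ifit3, chr19:34583279-34583578, plus strand: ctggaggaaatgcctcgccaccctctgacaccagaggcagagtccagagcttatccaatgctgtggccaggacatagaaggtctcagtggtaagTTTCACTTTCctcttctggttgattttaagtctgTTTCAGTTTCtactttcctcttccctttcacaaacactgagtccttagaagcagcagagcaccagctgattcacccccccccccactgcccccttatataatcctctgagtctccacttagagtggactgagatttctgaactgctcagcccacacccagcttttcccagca
Ifit3b, chr19:34607707-34608006, plus strand: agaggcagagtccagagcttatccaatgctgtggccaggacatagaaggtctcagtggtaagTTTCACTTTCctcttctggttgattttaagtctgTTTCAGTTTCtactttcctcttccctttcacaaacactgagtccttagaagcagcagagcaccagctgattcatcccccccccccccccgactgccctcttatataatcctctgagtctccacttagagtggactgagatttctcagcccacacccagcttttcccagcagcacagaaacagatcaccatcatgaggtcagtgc
Oasl2, chr5:114896684-114896983, plus strand: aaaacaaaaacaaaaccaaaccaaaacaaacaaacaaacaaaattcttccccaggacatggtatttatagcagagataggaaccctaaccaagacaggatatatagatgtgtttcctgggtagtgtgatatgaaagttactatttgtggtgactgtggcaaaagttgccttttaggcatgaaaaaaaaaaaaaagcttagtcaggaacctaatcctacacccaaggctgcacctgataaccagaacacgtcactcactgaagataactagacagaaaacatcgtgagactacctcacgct

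Isg15 held 3 overlapping matches that began 78 to 66 bases before the start, and Ifit1 held 2, which began 104 and 85 bases before it. In Ifit3 the 2 matches began 156 and 122 bases before the start and in Ifit3b 188 and 154 bases before it. Over 260 aligned bases the Ifit3 and Ifit3b windows were 99.2% identical. The transcripts of these 2 genes are also close copies: 31.7% of the 100-base stretches of Ifit3 and 27.4% of those of Ifit3b occurred in the other gene in GENCODE M21. For Oas1a 40.9% were shared with Oas1g. The authors' counting may have split reads within these pairs, so their separate values are uncertain. For Ifi204, Herc6 and Rtp4 the share found in any other gene was 10.7%, 10.3% and 9.28%, and it was at most 4.41% for every other member.

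Before any comparison, 1 library has to be named. Control replicate 1 had high levels of nearly the whole list. It was the highest control for 35 of 37 tested members, the exceptions being Mx1 and Ifi207, against 18.8% of all tested genes. For 18 of 37 members it was the highest of all 10 libraries, against 7.4% of all tested genes. The median over the 37 members of log2 CPM (CPM is the count scaled to library size) minus the control mean was 0.93 in control replicate 1 and −0.42 to 0.06 in the other controls. In circTau6 libraries 1 to 5 it was 0.84, 0.52, 0.55, 0.33 and 0.01. The same median over all tested genes was 0.00 to 0.01 in every library. Results are given with and without control replicate 1.

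**Figure D1:**
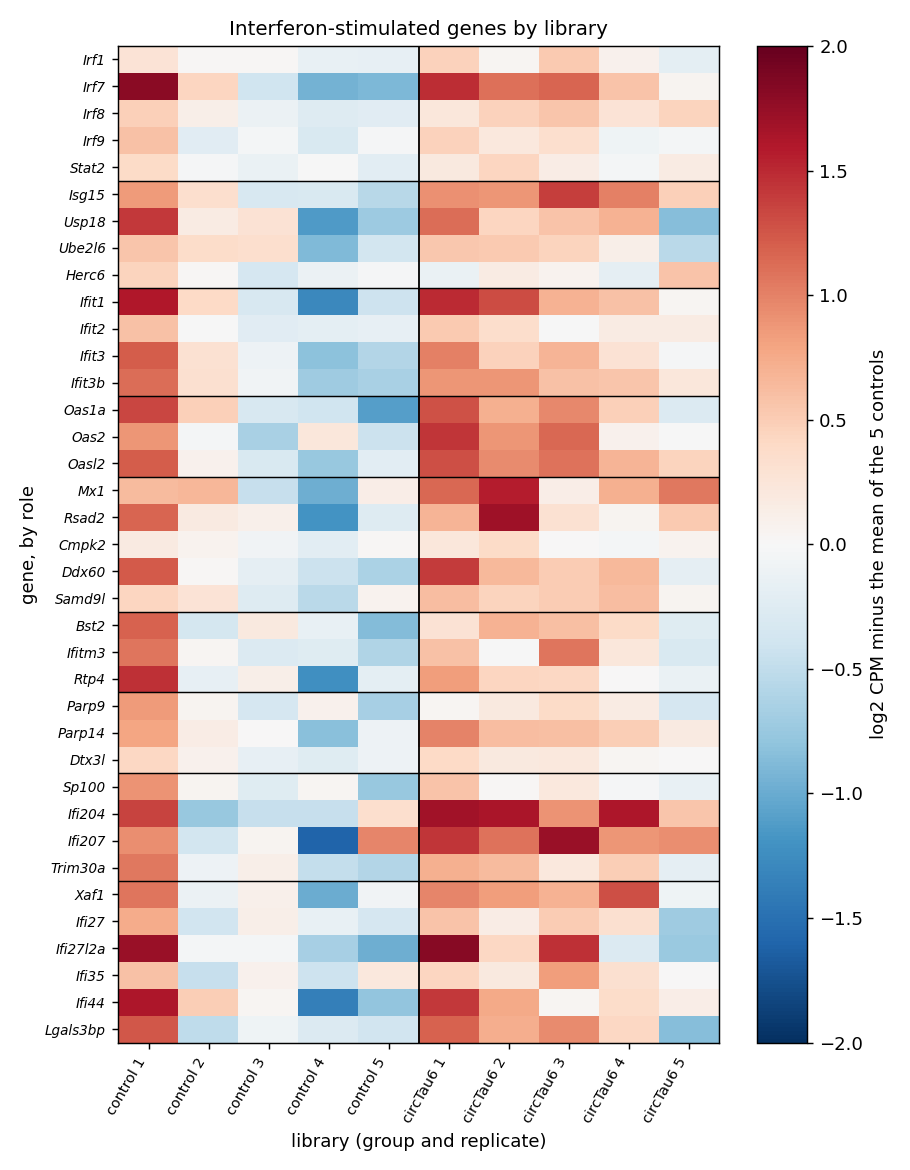
Heat map of 37 tested interferon-stimulated genes (rows, ordered by role, with lines between roles) in 10 libraries (columns). Colour is log2 CPM minus the mean of the 5 controls. Control replicate 1, at the far left, is as red as circTau6 replicate 1, and circTau6 replicate 5, at the far right, is the palest of its group.

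All 37 tested members had higher mean levels after circTau6, and none passed the test over all genes. In bulk tissue, more cells of a type and more RNA per cell cannot be told apart. The log2 fold changes in edgeR ran from 0.02 for Parp9 to 1.21 for Ifi204 with a median of 0.35, where the median over all tested genes was 0.00 and 49.9% of these were positive. At an adjusted p under 0.05, 0 of 37 members and 0 of 14396 genes (0%) were called by edgeR, and the adjusted p of members was 0.981 to 0.996. At an unadjusted p under 0.05, 7 of 37 members (18.9%) had higher values, against 2.58% of all tested genes, and 0 had lower values, against 1.85%. They were Isg15, Ifi204, Samd9l, Ifi207, Mx1, Irf8 and Oas2. As earlier results of these data were known when the list was chosen, these shares are descriptions. Not 1 of the 37 members had every circTau6 library above every control, a pattern found in 0.472% of all tested genes.

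The other tools called 0 members as well. DESeq2 called 0 of 38 members against 0.0602% of all genes with an adjusted p, and limma voom 0 of 37 against 0.0139%. At an unadjusted p under 0.05, DESeq2 had 9 of 38 members with higher values against 2.35% of all genes, and limma voom 9 of 37 against 2.81%. In the authors' deposited table all 38 members have a log2 fold change above 0, 11 have a p under 0.05 and 0 have an FDR under 0.05. Shares over all genes were not computed for that test, so whether these counts are unusual under it is not known. The lowest deposited FDR among the members is 0.56, for Ifi204. Members share libraries and regulators and are not independent, so their common sign is not 37 separate observations.

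Control replicate 1 was singled out because these same genes were high in it, and it lay above the control mean for every tested member. Leaving it out therefore had to raise the fold changes, and the values without it are a description and no independent support. With control replicate 1 left out, the log2 fold change was larger for 37 of 37 members and its standard error smaller for 32. The median log2 fold change was 0.76 in place of 0.35. At an unadjusted p under 0.05, 29 of 37 members had higher values, against 2.95% of all tested genes. Still 0 of 37 members were called at an adjusted p under 0.05, against 0.00689% of all tested genes, and the lowest edgeR adjusted p of a member was 0.148, for Oasl2. Irf8, Isg15, Ifit2, Oasl2, Parp14 and Ifi204 then had every circTau6 library above the remaining 4 controls, which is 6 of 37 members against 1.1% of all tested genes. In the other 9 fits without 1 library the median lay between 0.24 and 0.44. The number with an unadjusted p under 0.05 was 2 without control replicate 3, 3 without control replicate 4 and 4 without circTau6 replicate 2. Shares over all tested genes were not computed for these fits. Over the 10 fits without 1 library, Isg15 and Ifi204 stayed under 0.05 in 10, Ifi207 and Mx1 in 7, Samd9l in 6, Irf8 in 4 and Oas2 in 3.

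**Figure D2:**
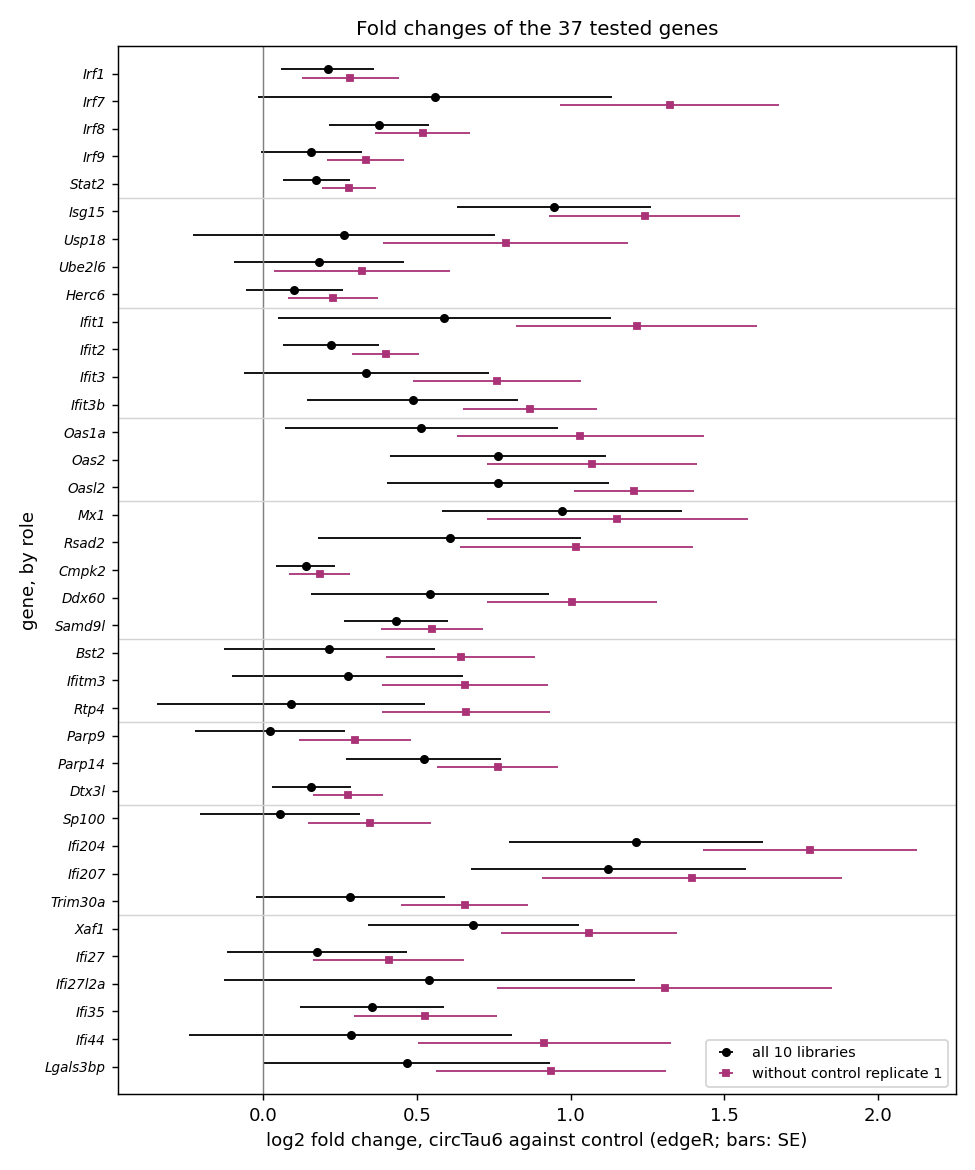
Log2 fold changes of circTau6 against control (horizontal axis, edgeR, bars are SE) for the 37 tested genes, by role. Black circles use all 10 libraries and purple squares leave out control replicate 1. Every square lies to the right of its circle, with Ifi204 farthest right in both.

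By role, the median log2 fold change was 0.76 for the 3 tested OAS genes, 0.70 for the 4 nuclear and PYHIN genes and 0.54 for the 5 MX, viperin and helicase-type genes. It was 0.41 both for the 4 IFIT genes and for the 6 genes without a shared role. The lowest medians were 0.22 for the ISG15 system, 0.21 for the transcription factors, 0.21 for the membrane proteins and 0.16 for the PARP and DTX genes. Without control replicate 1 they ran from 0.30 for the PARP and DTX genes to 1.07 for the OAS genes, so the order at both ends was the same. No role held more than 2 members with an unadjusted p under 0.05 in the fit of all libraries.

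The transcription factors of the pathway had small differences, apart from Irf7. Irf8, a factor of microglia and other myeloid cells, had 5.89, 4.57, 3.85, 3.48 and 3.54 CPM in control libraries 1 to 5, and 4.93, 5.80, 6.20, 5.06 and 5.71 CPM in circTau6 libraries 1 to 5. Only control replicate 1 reached the circTau6 range, and the log2 fold change was 0.38 ± 0.16 (SE) with an unadjusted edgeR p of 0.0363. Irf7, which amplifies interferon production and is itself strongly interferon-induced, had 13.3, 5.04, 2.81, 1.88 and 1.94 CPM in the controls and 10.5, 8.14, 8.55, 5.59 and 3.88 CPM after circTau6. Its highest and its lowest library were both controls, a 7.11-fold range within 1 group, and the log2 fold change of 0.56 ± 0.57 (SE) was no larger than its error. Without control replicate 1 it was 1.32 ± 0.36 (SE).

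Stat2, a subunit of the ISRE-binding complex, had 37.2, 28.1, 25.9, 28.3 and 24.7 CPM in the controls and 32.6, 38.4, 31.6, 27.8 and 32.0 CPM after circTau6. The groups overlapped, and the log2 fold change was 0.17 ± 0.11 (SE). Irf9, the DNA-binding subunit of that complex, had 0.16 ± 0.17 (SE), with 19.6 CPM in control replicate 1 and 10.6 to 12.9 CPM in the other controls. Irf1, a target of interferon gamma, had 0.21 ± 0.15 (SE).

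Isg15, a ubiquitin-like protein that is attached to other proteins after interferon, had the lowest edgeR p of the list. Ifi204 had a lower unadjusted p than Isg15 in DESeq2, 0.0053 against 0.0067, and in the authors' deposited test, 0.0014 against 0.0066. The row of Isg15 (ENSMUSG00000035692) lies on chromosome 4 from 156199424 to 156200818 on the minus strand in GRCm38. Isg15 had 1.81, 1.25, 0.746, 0.736 and 0.601 CPM in control libraries 1 to 5, and 1.93, 1.87, 2.70, 2.06 and 1.36 CPM in circTau6 libraries 1 to 5. Of the 5 circTau6 libraries 4 lay above every control, and replicate 5 lay below control replicate 1 alone. The means were 1.03 CPM ± 0.502 (SD, n = 5) and 1.98 CPM ± 0.48 (SD, n = 5), with a log2 fold change of 0.95 ± 0.32 (SE), an unadjusted edgeR p of 0.0089 and an adjusted p of 0.981. For its log2 CPM, the exact permutation test (two-sided, every way to divide 10 libraries into 5 and 5) gave p = 0.0159, where the smallest p it allows is 0.00794. These levels rest on 9 to 47 counts per library. In each of the 10 fits without 1 library the unadjusted p stayed between 0.00129 and 0.0296.

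The other genes of ISG15 attachment and removal had smaller differences. Ube2l6, the conjugating enzyme, had 0.18 ± 0.28 (SE), and Herc6, the ligase that attaches ISG15 in mice, had 0.10 ± 0.16 (SE). Usp18, which removes ISG15 and damps the receptor, had 0.26 ± 0.49 (SE). Its level was 5.76 CPM in control replicate 1 and 0.87 to 2.58 CPM in the other controls. Herc6 departed from the list in circTau6 replicate 5, where it had its highest level, 16.4 CPM.

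The IFIT proteins bind foreign RNA, and the 4 IFIT genes of the list lie on chromosome 19 between 34550694 and 34650009 in GRCm38. For Ifit1 the controls had 18.2, 7.83, 4.71, 2.34 and 4.41 CPM, and the circTau6 libraries 16.9, 14.8, 9.59, 8.95 and 6.05 CPM. For Ifit3 they had 39.5, 20.95, 15.8, 9.58 and 11.4 CPM, against 34.2, 23.5, 27.2, 20.8 and 16.7 CPM after circTau6. Ifit2, the member of the family with the lowest p, had 20.8, 13.8, 11.9, 12.1 and 12.3 CPM in control and 19.9, 17.7, 13.8, 15.5 and 15.6 CPM in circTau6 libraries. In all 3 genes control replicate 1 was the highest of the 10 libraries, and the groups overlapped.

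Log2 fold changes of the family were 0.59 ± 0.54 (SE) for Ifit1, 0.22 ± 0.16 (SE) for Ifit2, 0.33 ± 0.40 (SE) for Ifit3 and 0.49 ± 0.34 (SE) for Ifit3b. None had an unadjusted p under 0.05 with all libraries. Without control replicate 1 all 4 did, with a family median of 0.81 in place of 0.41.

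The OAS enzymes make 2-5 oligoadenylates that activate the RNA-cutting enzyme RNase L. Oas2 had 3.04, 1.54, 0.976, 1.88 and 1.14 CPM in the controls and 4.48, 3.04, 3.67, 1.71 and 1.56 CPM after circTau6, so that 2 circTau6 libraries lay within the lower controls. Its log2 fold change was 0.76 ± 0.35 (SE) with an unadjusted edgeR p of 0.0461. Oasl2, a catalytically active OAS-like protein of the mouse, had 0.76 ± 0.36 (SE) and an unadjusted edgeR p of 0.0643. The controls had 19.7, 9.02, 6.83, 4.96 and 7.28 CPM of Oasl2, and the circTau6 libraries 21.03, 16.5, 18.3, 13.7 and 11.6 CPM. Leaving out control replicate 1 raised its log2 fold change to 1.21 ± 0.20 (SE), and that control alone overlapped the circTau6 range. Oas1a had 0.51 ± 0.44 (SE), and Oas3, not tested by edgeR, had 1 to 20 counts per library.

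Among the MX, viperin and helicase-type antiviral genes, Samd9l and Mx1 had unadjusted edgeR p of 0.0239 and 0.0248. Samd9l, a restriction factor against poxviruses, had 11.5, 10.3, 7.06, 5.76 and 8.88 CPM in the controls and 13.04, 11.6, 12.1, 13.01 and 8.77 CPM after circTau6, and 4 of 5 circTau6 libraries were above every control. Its log2 fold change was 0.43 ± 0.17 (SE). Mx1, a GTPase that blocks influenza virus but is defective in many laboratory strains, had 1.10, 1.13, 0.459, 0.268 and 0.734 CPM in control and 1.64, 2.23, 0.746, 1.18 and 1.496 CPM in circTau6 libraries. Its log2 fold change was 0.97 ± 0.39 (SE), on 4 to 38 counts per library. On TPM, which is adjusted for transcript length, the difference of Mx1 was smaller. There limma gave 0.43 on log2 of TPM plus 0.1 and 0.25 on log2 of TPM plus 1. The authors' deposited log2 fold change of Mx1 is 0.47.

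Rsad2 encodes viperin, an enzyme that makes a chain-terminating nucleotide, and Cmpk2, its neighbour on chromosome 12, encodes a nucleotide kinase that supplies it. Rsad2 had 0.61 ± 0.43 (SE), with 6.32 CPM in circTau6 replicate 2 and 1.94 to 3.06 CPM in the others of that group. Cmpk2 had 0.14 ± 0.09 (SE). Ddx60, a helicase-like cofactor of RNA sensing, had 0.54 ± 0.39 (SE).

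The membrane proteins against virus entry and release had wide, overlapping ranges. Ifitm3, which blocks fusion of viruses in endosomes, had 20.1, 9.79, 7.87, 7.97 and 6.21 CPM in the controls and 14.3, 9.48, 20.1, 11.1 and 7.62 CPM after circTau6. For Bst2, the tether that holds budding viruses at the cell surface, these values were 8.47, 2.85, 4.25, 3.28 and 1.94 CPM and 4.53, 6.03, 5.63, 4.83 and 3.06 CPM. The log2 fold changes were 0.27 ± 0.38 (SE) for Ifitm3, 0.21 ± 0.34 (SE) for Bst2 and 0.09 ± 0.44 (SE) for Rtp4, a receptor-transporting protein. Rtp4 had 9.38 CPM in control replicate 1 and at most 6.06 CPM in any other library.

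Parp14 and Parp9 transfer ADP-ribose, and Dtx3l is the ubiquitin ligase that pairs with Parp9. Parp14 had 12.2, 7.83, 7.12, 3.88 and 6.54 CPM in the controls and 14.2, 10.95, 10.8, 10.01 and 8.03 CPM after circTau6. Control replicate 1 alone overlapped the circTau6 libraries, and the log2 fold change was 0.52 ± 0.25 (SE) with an unadjusted edgeR p of 0.0621. Parp9 and Dtx3l had 0.02 ± 0.25 (SE) and 0.16 ± 0.13 (SE). They start head to head on chromosome 16 with overlapping spans, and whether the authors counted by strand is not given, so reads of their shared stretch cannot be assigned with certainty.

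The largest log2 fold changes of the list belonged to Ifi204 and Ifi207, DNA-binding PYHIN proteins encoded next to each other on chromosome 1. Ifi204 had 2.72, 0.534, 0.689, 0.67 and 1.27 CPM in control libraries 1 to 5, and 3.46, 3.34, 1.95, 3.30 and 1.496 CPM in circTau6 libraries 1 to 5. Its log2 fold change was 1.21 ± 0.41 (SE) with an unadjusted edgeR p of 0.0111, and 1.78 ± 0.35 (SE) without control replicate 1. Ifi207 had 1.04, 0.356, 0.517, 0.067 and 1.07 CPM in control, and 1.53, 1.17, 1.90, 1.00 and 1.02 CPM in circTau6 libraries. Here controls 1 and 5 overlapped the lower end of the circTau6 libraries. The log2 fold change was 1.12 ± 0.45 (SE) with an unadjusted edgeR p of 0.0242, on 1 to 33 counts per library. Sp100, a nuclear body protein, had 0.05 ± 0.26 (SE), and Trim30a, an inhibitor of inflammatory signalling, had 0.28 ± 0.31 (SE).

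Of the 6 other interferon-inducible genes, none had an unadjusted p under 0.05. Xaf1, which promotes cell death, came nearest, with 5.18, 2.20, 2.58, 1.14 and 2.27 CPM in the controls, 4.82, 4.39, 3.96, 6.01 and 2.25 CPM after circTau6 and a log2 fold change of 0.68 ± 0.34 (SE). Ifi27, a small interferon-induced membrane protein, had 46.3, 21.3, 29.9, 25.0 and 22.0 CPM in the controls and 41.0, 30.6, 39.2, 34.7 and 16.9 CPM after circTau6, with 0.17 ± 0.29 (SE). Its relative Ifi27l2a had 0.54 ± 0.67 (SE) and Lgals3bp, a secreted glycoprotein, 0.47 ± 0.47 (SE). Ifi35 had 0.35 ± 0.23 (SE) and Ifi44 0.28 ± 0.53 (SE). Lgals3bp and Ifi27 were lowest of all 10 libraries in circTau6 replicate 5.

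**Figure D3:**
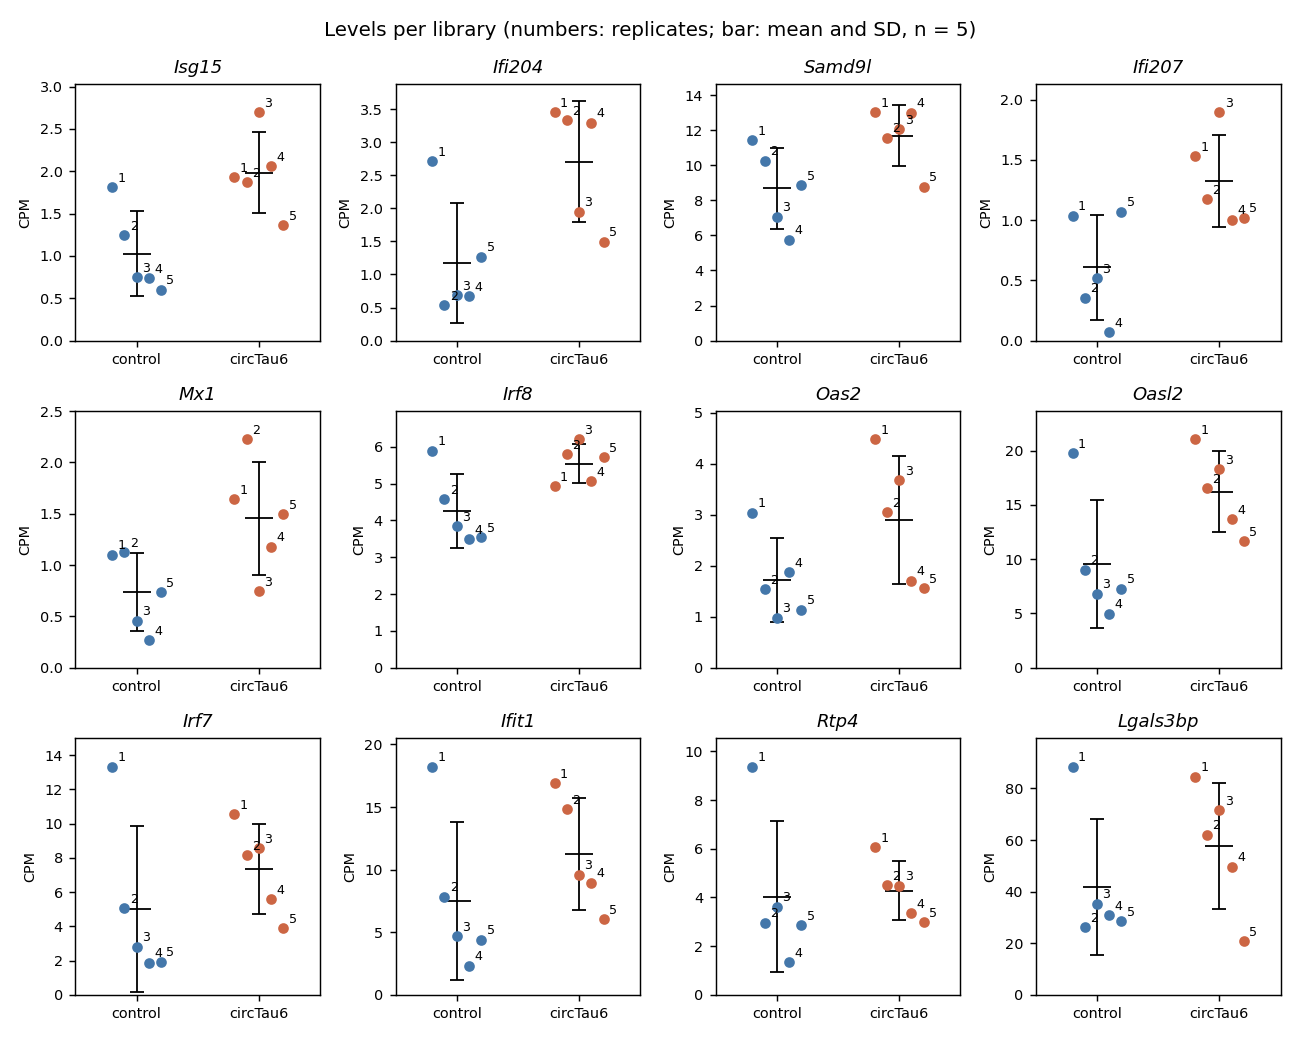
Levels of 12 genes in each library, in CPM, with control in blue and circTau6 in orange and the replicate number beside each point. Black bars are the mean and SD of 5 libraries. Control replicate 1 lies within or above the circTau6 range in every panel, and in Irf7, Ifit1, Rtp4 and Lgals3bp it is the highest of 10.

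Levels differed widely between members. On the TPM scale, which is adjusted for transcript length, Ifi27 was the most abundant in control libraries at 78.6 ± 28.7 (SD, n = 5), followed by Lgals3bp at 49.1 ± 31.1 (SD, n = 5), Ifitm3 at 37.8 ± 20.5 (SD, n = 5) and Ifit3 at 27.5 ± 17.2 (SD, n = 5). These neighbours in the order do not differ beyond their spread. At the other end were Ifi207 at 0.443 ± 0.32 (SD, n = 5) and Oas3 at 0.162 ± 0.142 (SD, n = 5). Isg15 had 3.61 TPM ± 1.78 (SD, n = 5) in control and 7.03 TPM ± 1.69 (SD, n = 5) in circTau6 libraries.

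The spread among mice of 1 group was itself large. For 25 of 38 members the highest control was more than 3-fold above the lowest. The median SD of log2 CPM was 0.66 for the tested members in control and 0.37 in circTau6 libraries, against 0.12 and 0.14 for all tested genes. Without control replicate 1 it was 0.38 in control. Many members are low in level, and low counts add to this spread.

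Interferon genes themselves were close to undetectable. All 20 interferons of types I, II and III on the list had a row, 15 had 0 counts in every library, and no interferon exceeded 3 counts in any library. Ifnb1 had 0 counts in 10 of 10 libraries, which allows up to 0.17 to 0.204 CPM per library when 3 counts are taken as the limit, counting error only. Of 20 receptor and signalling genes, 18 were tested and 0 passed over all genes. At an unadjusted p under 0.05, 1 had higher values, the phosphatase Ptpn6 at 0.44 ± 0.17 (SE), and 1 lower values, the repressor Irf2 at −0.18 ± 0.09 (SE). Over all tested genes these shares were 2.58% and 1.85%, and 1 of 18 is near them.

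The receptor chains Ifnar1 and Ifnar2 had log2 fold changes of 0.02 ± 0.06 (SE) and 0.05 ± 0.13 (SE), and the kinases Jak1 and Tyk2 had 0.00 ± 0.04 (SE) and 0.00 ± 0.08 (SE).

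Markers of cell types that could carry these transcripts were read in the same libraries. Of 10 microglia markers, 9 had a row, and their summed level was 350.1 to 381.8 CPM in control and 383.9 to 413.7 CPM in circTau6 libraries, without overlap. At an unadjusted p under 0.05, 5 of these 9 had higher values, against 2.58% of all tested genes, and the median log2 fold change of the 9 was 0.14. Control replicate 1, at 360.4 CPM, lay inside the control range of microglia markers while its interferon-stimulated genes were high. The part of microglia in the group difference was not tested.

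Border macrophage markers summed to 10.5 to 19.4 CPM in control and 7.49 to 28.9 CPM after circTau6, with 7 of 7 detected. Monocyte and neutrophil markers summed to 0.517 to 3.28 CPM and 1.02 to 5.45 CPM, and Ly6g had 0 counts in 10 of 10 libraries. Ccr2, a chemokine receptor of monocytes and the only marker of that list tested, had 4, 1, 3, 20 and 2 counts in the controls and 23, 25, 20, 19 and 7 after circTau6. Its log2 fold change was 1.52 with an unadjusted edgeR p of 0.0241, and control replicate 4 overlapped the circTau6 libraries. Plac8, not tested, had 0 to 4 counts in control and 1 to 14 in circTau6 libraries. S100a8, not tested either, had 0 to 6 and 1 to 5 counts. For T, NK and B cells 6 of 8 markers never exceeded 10 counts in a library, with sums of 0.469 to 1.07 CPM and 0.748 to 2.41 CPM. Cd8a, a marker of cytotoxic T cells that was not tested, had 2, 2, 3, 0 and 3 counts in the controls and 11, 14, 4, 6 and 6 after circTau6. These did not overlap, a pattern found in 0.472% of all tested genes, but the nearest libraries had 3 and 4 counts. Other markers of that list did not follow. Ms4a1 had 2 to 3 counts in control and 0 to 6 in circTau6 libraries, and Klrd1 had 0 to 3 in both groups. The part of these cells in the group difference was not tested. In control replicate 1 these 3 lists stood at 12.5, 0.906 and 0.841 CPM, within the range of the other controls. Endothelial markers summed to 213.4 to 247.7 CPM in control and 224.3 to 274.8 CPM after circTau6, and 1 of 6 had an unadjusted p under 0.05, with higher values.

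Choroid plexus markers were nearly lacking in control replicate 2 and circTau6 replicate 5, at 78.8 and 72.4 CPM against 1929 to 5582 CPM elsewhere. The summed meningeal fibroblast markers were also lowest in these 2 libraries, at 125.2 and 98.4 CPM against 170.1 to 415.1 CPM elsewhere. Control replicate 1 was the highest control at 317.4 CPM. Igf2 had the highest counts of that list, at 960 and 613 in the 2 libraries against 1992 to 4882 elsewhere. Dcn and Lum were also lowest of each group in these 2 libraries, but Col1a1 and Col1a2 were lowest of their group in neither. CircTau6 replicate 5 was the lowest of its group for 27 of 37 members, against 23% of all tested genes. Control replicate 2 was not low in the members. Their median log2 CPM minus the control mean was 0.06 there, against −0.42 to −0.11 in control replicates 3 to 5. Without both choroid-poor libraries the median log2 fold change of the members was 0.44. The part of choroid plexus or meninges in the group difference was not tested. Summed astrocyte, neuron, oligodendrocyte and hippocampal subfield markers overlapped between the groups, and the subfield markers Prox1, Wfs1, Fibcd1 and Dock10 together had 488 to 554.6 CPM.

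**Figure D4:**
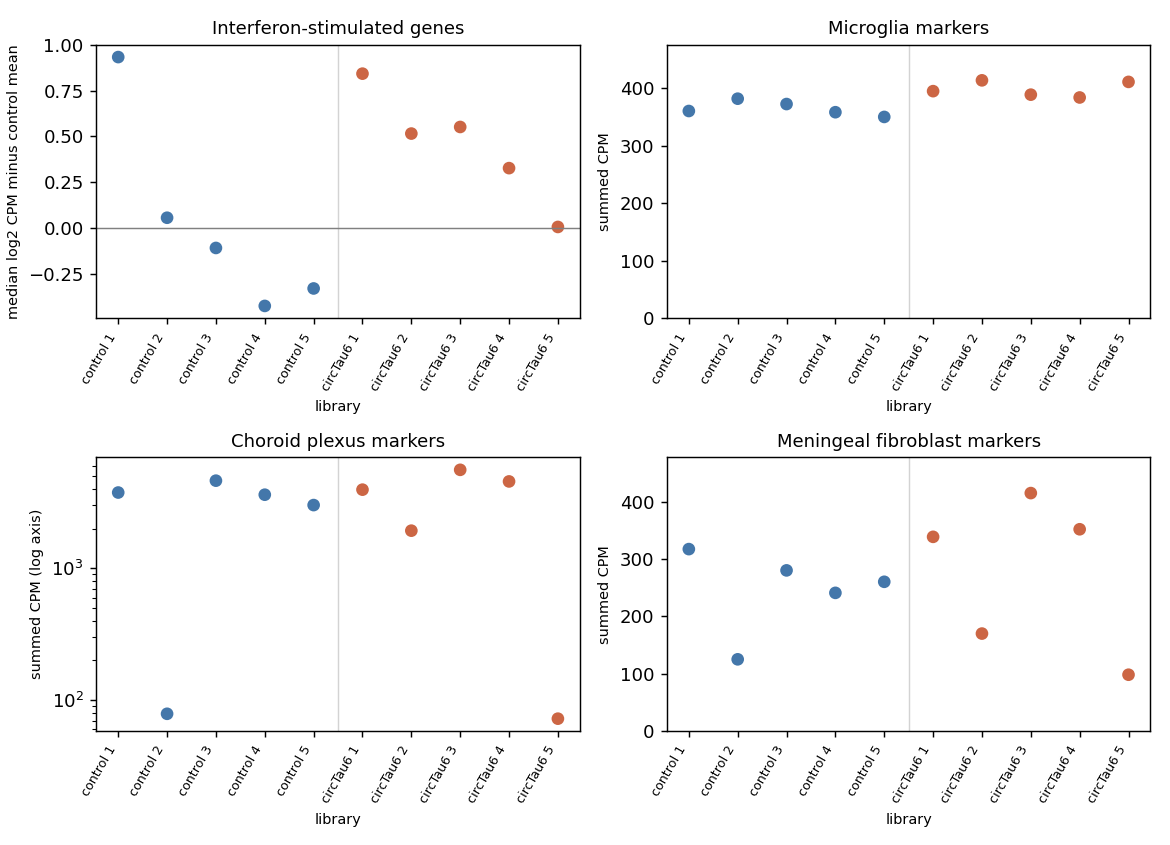
Measures in each of the 10 libraries (blue control, orange circTau6). The upper left panel shows the median of the 37 interferon-stimulated genes as log2 CPM minus the control mean, the others the summed CPM of microglia, choroid plexus (log axis) and meningeal fibroblast markers. Control replicate 1 is highest at upper left and lies among the controls for microglia.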

How the data were processed

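RNA of 10 hippocampi was sequenced as 150 bp pairs from strand-specific libraries depleted of ribosomal RNA, with integrity numbers above 8.0, per the labels' protocols. Per the file headers, the authors deposited a count and a TPM for each gene and library, unnormalised counts and TPM within a library, with no pooling. The deposited log2 fold change, p-value and FDR are the authors' own, from an unnamed test. StringTie 1.3.1 and RSEM are listed in the submitters' processing notes without their use. Neither aligner nor build is given in any source used here. In 108 entries a count of 0 stands beside a TPM above 0, so the deposited counts may be rounded estimates. All 38 member IDs matched GENCODE M21 on GRCm38, whose coordinates are printed.

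Total counts were 14762952 to 17647138 per library, and 3 counts correspond to 0.17 to 0.204 CPM. Group labels came from the treatment field. The labels name no cage, litter or batch, and p-values measure the spread between 5 libraries per group. Counts were filtered with filterByExpr, scaled with TMM and tested across all genes with the quasi-likelihood F test of edgeR 4.0.16 (robust) in R 4.3.3, with Benjamini-Hochberg adjustment at 0.05. SE was taken as the absolute log2 fold change over the square root of the F statistic. CPM uses TMM-scaled totals, and log2 CPM a prior count of 2. Alternatives were DESeq2 1.42.0, limma 3.58.1 (voom with quality weights, or log2 of TPM plus 1 or 0.1), RLE or upper quartile scaling, no filter, at least 1 CPM in 5 libraries, a replicate block, and leaving out libraries. The tests were checked on simulated data. Members, lists and tests were chosen with earlier results of these data known. All members are named. Values in every library are given for those with an unadjusted p under 0.05, the lowest p of each of 9 roles and 8 members chosen by name. Oasl2 was added to them after its values were seen. The limit of 3 counts covers counting error only, while SD and SE include the spread between libraries. The values of 1 signalling gene are not reported here.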

Additional observations from a re-analysis of the deposited data

Results flagged for a closer look

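In a group of 5 libraries a library was picked out when its gap to the nearest other exceeded 0.71 of the group's range (Dixon's test). Of 76 groups, 11 had such a library. Chance gives about 1 in 20 for normally distributed values, which CPM need not be. The rate of this rule over all genes was not computed, so no excess over chance is shown. Control replicate 1 was the library in 10 of the 11. It had 13.3 CPM of Irf7 against 1.88 to 5.04 in the other controls, 19.6 CPM of Irf9 against 10.6 to 12.9, and 37.2 CPM of Stat2 against 24.7 to 28.3. Ifit2 stood at 20.8 CPM against 11.9 to 13.8, Oasl2 at 19.7 against 4.96 to 9.02, and Ddx60 at 7.63 against 2.00 to 3.26. Ifitm3 was at 20.1 CPM against 6.21 to 9.79, Rtp4 at 9.38 against 1.34 to 3.62, Ifi27l2a at 5.50 against 0.734 to 1.55, and Lgals3bp at 88.5 against 26.2 to 35.3. The remaining case was Rsad2 at 6.32 CPM in circTau6 replicate 2, against 1.94 to 3.06 in the other circTau6 libraries. The genes share their regulation, so these are not independent cases, and the source of the high levels in control replicate 1 was not tested.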

How the results depend on the processing

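No member was called under any of 20 alternatives, and the lowest adjusted p of a member was 0.148. Of 740 values of single members, 726 kept their direction. The exceptions were Herc6 without both choroid-poor libraries, at −0.0327, and 5 members over the fits that left out 1 library, at −0.0328 to 0.227 for Herc6, −0.0148 to 0.915 for Ifi44, −0.10 to 0.35 for Sp100, −0.12 to 0.30 for Parp9 and −0.13 to 0.66 for Rtp4. Genes called in all were 0 with all libraries, 11 with DESeq2, 2 with limma voom, 2 with no filter, 4 with a replicate block, 3 without both choroid-poor libraries, and 0 to 4 when 1 library was left out, with 4 without circTau6 replicate 5 and 1 each without control replicates 1 and 3. Members with an unadjusted p under 0.05 were 7, 16 with the replicate block, and 2 to 29 when 1 library was left out, with 29 without control replicate 1, 2 without control replicate 3, 3 without control replicate 4 and 4 without circTau6 replicate 2. For the block, and for fits without a library other than control replicate 1, the share over all tested genes was not computed. The counts of those fits are therefore no result about the members. Members without overlap were 0, 2 without both choroid-poor libraries, and 0 to 6 when 1 library was left out, with 6 without control replicate 1, 2 without circTau6 replicate 5 and 1 without circTau6 replicate 3. Counts on unscaled totals, an alternative added after seeing the data, also gave 0. Every circTau6 library lay above every control in 0.472% of all tested genes with all libraries, and in 1.1% without control replicate 1. For the other settings this share was not computed. With fewer libraries any gene is more easily free of overlap, so those counts are no result about the members. Over all tested genes, the deviations of same-numbered libraries from their group means correlated at 0.1, 0.128, 0.136, −0.06 and −0.08. Values over all genes cannot show whether the replicate numbers pair the mice. The median of the members was highest in replicate 1 of both groups, at 0.93 and 0.84. In replicates 4 and 5 it was −0.42 and −0.33 in control and 0.33 and 0.01 in circTau6 libraries. The labels give the block no basis and do not say whether mice were paired. The cause of the changes between alternatives was not tested. Isg15, Ifi207, Mx1, Oas1a and Oas3 had under 50 counts in every library, which limits their precision.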
